A study of Mus musculus with 4 samples.

Results

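Adhesion G protein-coupled receptors are a family of membrane receptors, and all genes of the family with a row in the count tables are described here in newborn mouse epidermis. The members were chosen by symbol, as every row beginning with Adgr or named Celsr1, Celsr2 or Celsr3, which gave 29 of the 24453 gene symbols counted. No measured value entered that rule. The family itself was proposed with the mutant against control results of these libraries known, the level of Adgrb1 among them, so Adgrb1 is given as a description without a test, and no count over the members is read as evidence about the family.

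The libraries came from cells of the interfollicular epidermis of the back, taken at postnatal day 0 and sorted by flow cytometry for surface EpCAM, surface Sca1 and a high level of α6-integrin. The 2 mutant libraries, called I53A, had the genotype Ring1a-/- Ring1b-/I53A: Ring1, the gene of the protein Ring1a, was deleted, and Rnf2, the gene of the protein Ring1b, carried a null allele over an allele whose product cannot ubiquitinate histone H2A. The other 2 libraries were labelled control, with no further genotype. The labels name no Cre driver or strain, and the effects of the inactive allele, the null allele and the loss of Ring1 cannot be told apart in this design.

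Each member of the family joins a long extracellular part, built of adhesion domains, to the membrane-spanning domain of a G protein-coupled receptor, and most can be cut, at a site next to the membrane, into pieces that stay together. Binding of a ligand on a neighbouring cell or in the matrix is thought to expose a tethered stretch that activates the receptor, which then signals through G proteins. In skin the best known member is Celsr1, which orients basal cells and hair follicles along the body axis through planar cell polarity. The family is divided into subfamilies named by letters, and the 29 genes fell into 9 of them.

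The libraries held 17010432 and 15505018 counts in control replicates 1 and 2 and 15966412 and 21543385 in I53A replicates 1 and 2. Ring1 read 24.2 and 33.3 CPM (counts scaled to library size by the trimmed mean of M-values, TMM) in the controls and 2.54 and 2.91 in the I53A libraries, and fell by 3.38 on the log2 scale (edgeR quasi-likelihood test, adjusted p = 0.000172). By Xist and Ddx3y, I53A replicate 1 was a male library and the other 3 were female. Dropping I53A replicate 2 therefore leaves a male mutant library against female controls, where sex and genotype cannot be told apart. Over all 14550 genes tested, 826 were higher and 151 lower in I53A, counts that moved when 1 library was dropped. They were 251 and 38 on dropping control replicate 1, 527 and 76 on dropping control replicate 2, 1198 and 382 on dropping I53A replicate 1, and 1182 and 404 on dropping I53A replicate 2. The 2 I53A libraries differed in sex and so did not come from the same animal, and the spread between them includes a difference of sex. For the 2 controls, both female, the labels do not say whether they came from separate animals. The p-values measure only the spread between these libraries.

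Adgre5 and Adgrg6 rose in I53A, no member fell, and Adgrb1, described apart below, was read almost only in I53A. Besides Adgrb1, 22 members were tested, and the 2 called are 9.09% of them, beside 5.68% of all genes tested that were called higher and 1.04% called lower. At an unadjusted p under 0.05 the edgeR test counted 7 of the 22 as higher and 0 as lower, beside 13% and 5.69% of all genes tested. Both I53A libraries lay above both controls for 11 of the 22, where 24.5% of all tested genes did so. Both lay below the controls for 2, Adgre4 and Celsr1, where 23.5% of all tested genes did so. The fitted log2 fold change was above 0 for 19 of the 22, with a median of 0.48, beside -0.01 over all genes tested. A low-count filter on the control libraries alone would have kept 18 of the members, Adgre5 and Adgrg6 among them, whose median was 0.44. Adgrb1, Adgrg3, Adgrg5, Adgrl4 and Celsr3 would not have been kept by it. Of these, Adgrg5 is counted in the 7 of unadjusted p under 0.05, and Adgrg3 and Adgrg5 in the 11 above both controls.

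**Figure D1:**
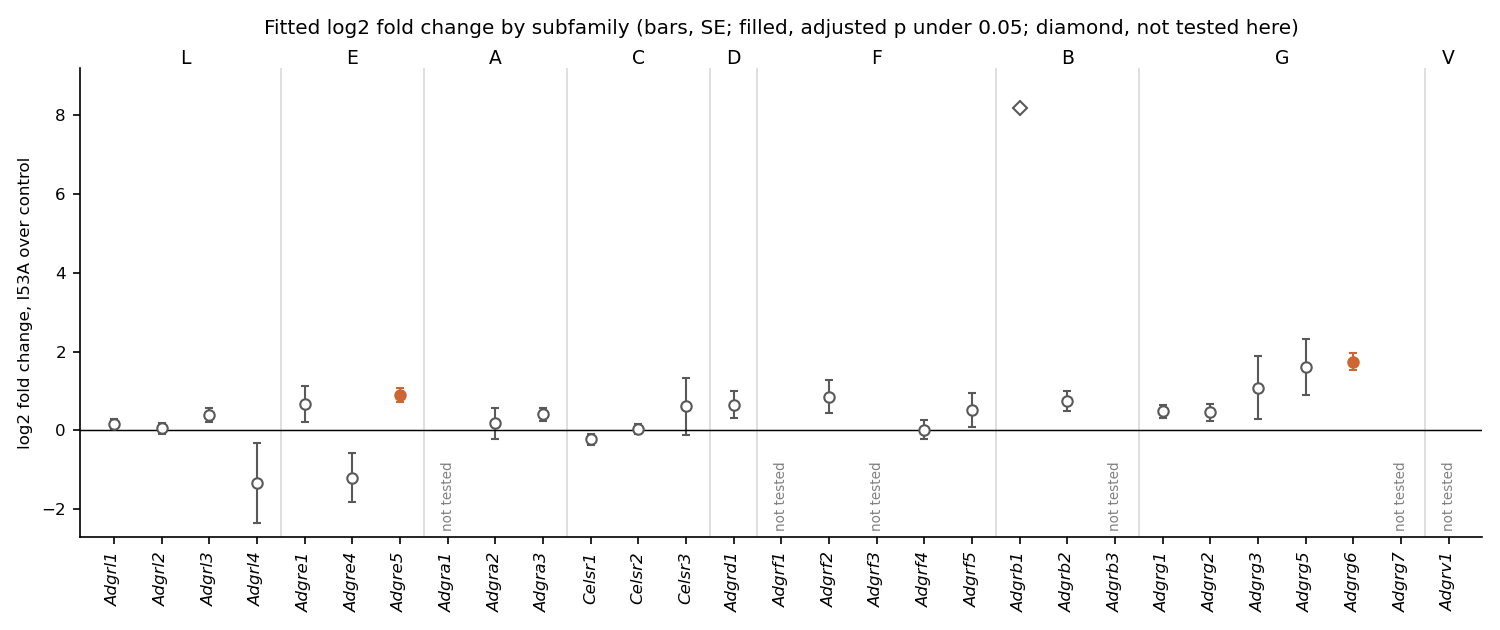
Log2 fold change of I53A over control for adhesion receptor genes, with bars of 1 SE from the edgeR fit; filled points have an adjusted p under 0.05, and the diamond is Adgrb1, shown as a description without a test. Adgrg6 and Adgre5 are the 2 filled points, and 19 of the 22 points besides Adgrb1 lie above 0. Adgrg3, Adgrg5, Adgrl4 and Celsr3, which the controls alone would not have kept, are drawn like the others.

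Subfamily B holds the brain angiogenesis inhibitors, receptors that take part in the uptake of dying cells and in synapse formation. Adgrb1, which recognises phosphatidylserine on dying cells and calls in the ELMO and DOCK proteins, had 1 read in each control library and 246 and 556 reads in I53A replicates 1 and 2. Scaled to library size these were 0.0595 and 0.0663 CPM in the controls and 15.7 and 24.5 CPM in I53A. Adgrb1 was thus close to unread in both controls and plainly read in both I53A libraries. The ratio of pooled counts was 333, with an exact binomial interval at 95% of 91.9 to 2754, which covers counting error only. The gene lies on the plus strand of chromosome 15, from 74516195 to 74589465 (GRCm38).

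Its relative Adgrb2 read 13.5 and 20.6 CPM in the controls and 30.7 and 26.5 CPM in I53A. Both I53A libraries were above both controls, yet Adgrb2 did not pass the test (log2 fold change 0.75 ± 0.24 SE, edgeR adjusted p = 0.112). Without I53A replicate 2, which leaves only the male I53A library, the log2 fold change of Adgrb2 was 0.86. Adgrb3, the receptor of the C1q-like proteins, had 2 and 1 reads in the controls and 9 and 4 in I53A, too few to be tested. The summed level of the subfamily, Adgrb1 included, was 13.6 and 20.7 CPM in the controls and 46.9 and 51.2 CPM in I53A. Of the I53A sums Adgrb1 gave 15.7 and 24.5 CPM, and nearly all the rest was Adgrb2.

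Adgrb1 is best known from brain, and the 6 neuronal marker genes summed to 1.49 and 1.72 CPM in the controls and 5.66 and 4.36 CPM in I53A. Of these markers Rbfox3 and Snap25 had both I53A libraries above both controls, though the controls alone would have kept neither. Tubb3, Stmn2 and Elavl3 overlapped, Elavl4 had 1 read in all, and none was called. Without Rbfox3 the other 5 summed to 0.595 and 1.26 CPM in the controls and 2.29 and 1.94 CPM in I53A. The part of neuronal cells in the Adgrb1 level was not tested. Among the 7 tested genes within 250 kb of Adgrb1, 1 was higher in I53A, Lynx1, a modulator of nicotinic receptors, named here after its values were seen. Lynx1 read 1.85 and 2.92 CPM in the controls and 15.9 and 14.5 CPM in I53A (log2 fold change 2.68 ± 0.35 SE, edgeR adjusted p = 0.00137).

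**Figure D2:**
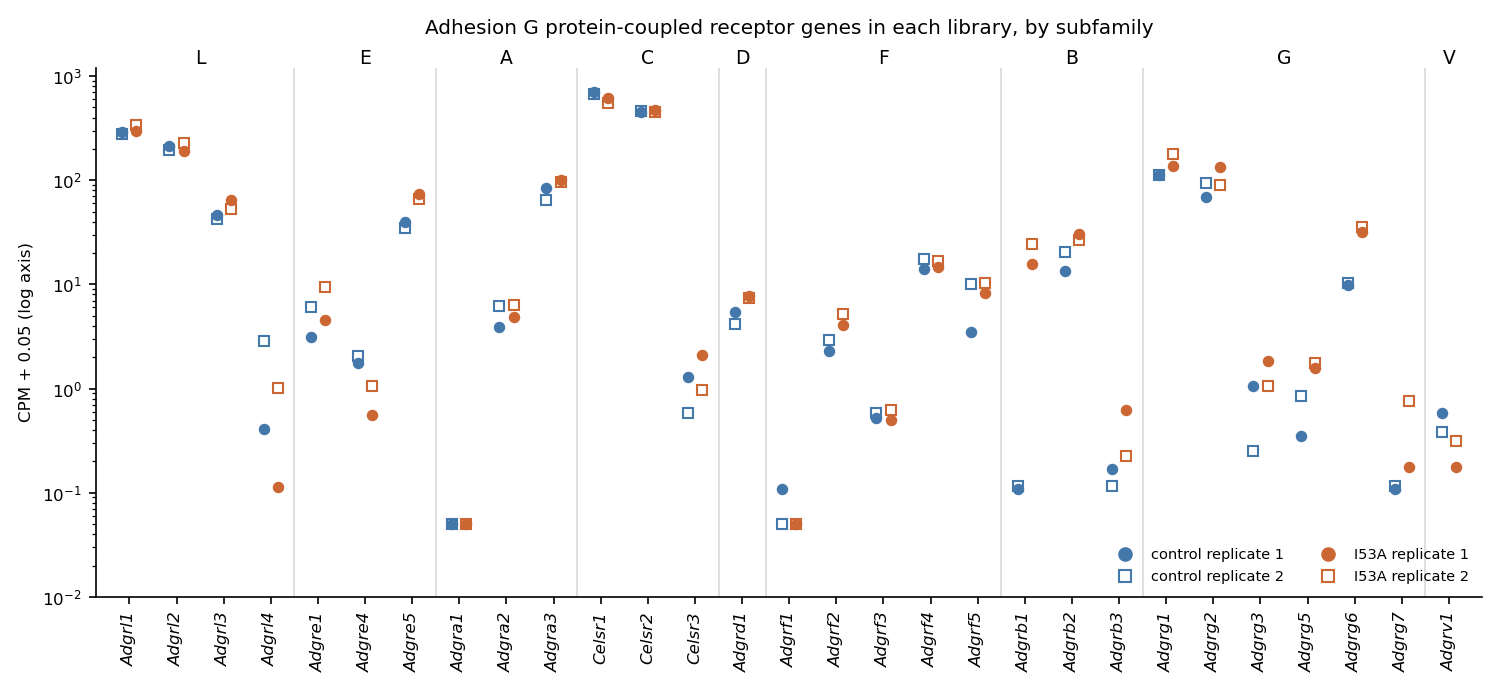
CPM + 0.05 of each of the 29 adhesion receptor genes in each of the 4 libraries, on a log axis and grouped by subfamily. Blue marks are controls and orange marks I53A, filled circles replicate 1 and open squares replicate 2, and genes with no read in a library stand at 0.05. The I53A marks of Adgrb1 (15.7 and 24.5 CPM) stand far above its control marks (0.0595 and 0.0663 CPM).

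In subfamily G, Adgrg6 rose. Adgrg6, a receptor of matrix proteins that is required for the myelination of nerves by Schwann cells, read 9.88 and 10.3 CPM in the controls and 31.5 and 35.7 CPM in I53A. The groups lay well apart and each pair was close together, at 10.1 ± 0.276 CPM (SD, n = 2) and 33.6 ± 2.97 CPM (SD, n = 2). The rise was 1.74 ± 0.22 (SE) on the log2 scale, with an edgeR adjusted p of 0.00115, and the call held in every alternative run, each library left out in turn included. Adgrg6 lies on the minus strand of chromosome 10, from 14402583 to 14545659 (GRCm38), and the 1 tested gene within 250 kb of it was not called.

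The 7 Schwann and glial marker genes summed to 112 and 97.0 CPM in the controls and 116 and 107 CPM in I53A, sums that overlap and are mostly Erbb3. Without Erbb3 the other 6 summed to 21.7 and 20.9 CPM in the controls and 37.3 and 44.6 CPM in I53A, without overlap. Of the 5 tested, 1 was called higher, Mbp, a myelin protein gene, whose adjusted p was 0.0612 without control replicate 1 and 0.165 without control replicate 2. The defining gene Sox10 had 28 and 27 reads in the controls and 17 and 89 in I53A, so that the I53A libraries lay on both sides of the controls. The part of these cells in the Adgrg6 level was not tested. In such bulk samples more or fewer cells of a type and more or less RNA per cell cannot be told apart. The 7 keratinocyte marker genes, mostly Krt5, summed to 24403 and 28367 CPM in the controls and 20098 and 16959 CPM in I53A, without overlap. Krt5 and Krt14 lay lower in both I53A libraries and Epcam higher, the groups overlapped for the rest, and none was called. The part of such a shift in the level of any member was not tested.

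Adgrg1, a receptor for type III collagen and transglutaminase, was the most abundant member of subfamily G by read count. It read 113 and 113 CPM in the controls and 136 and 180 CPM in I53A. Both I53A libraries were higher, and the gene did not pass the test (log2 fold change 0.49 ± 0.16 SE, edgeR adjusted p = 0.121). Without I53A replicate 1 its adjusted p was 0.00412. Adgrg2, an X-linked receptor known from the male reproductive tract, read 69.0 and 94.0 CPM in the controls and 134 and 90.5 CPM in I53A. The male library, I53A replicate 1, was the highest and the other 3 overlapped (0.46 ± 0.21 SE, adjusted p = 0.288 by edgeR). Without I53A replicate 2, which leaves a single male library in that group, its adjusted p was 0.0110.

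Adgrg3 and Adgrg5, both known from blood cells, lie next to Adgrg1 on chromosome 8 and were read at low levels. Neither would have been kept by a low-count filter on the control libraries alone. Adgrg3 read 1.01 and 0.199 CPM in the controls and 1.78 and 1.01 CPM in I53A, with its higher control just under its lower I53A library (1.09 ± 0.79 SE, edgeR adjusted p = 0.546). Adgrg5 read 0.298 and 0.795 CPM in the controls and 1.53 and 1.72 CPM in I53A, with no overlap (1.60 ± 0.71 SE, edgeR adjusted p = 0.261). Adgrg7 was not tested, with 1 read in each control and 2 and 16 reads in I53A. The subfamily summed to 193 and 218 CPM in the controls and 305 and 310 CPM in I53A.

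Subfamily E holds receptors with EGF-like domains that are best known from leukocytes. Adgre5, also called CD97, binds CD55, THY1, integrins and chondroitin sulfate and is found on epithelial cells as well as leukocytes. It read 39.8 and 34.5 CPM in the controls and 73.2 and 65.4 CPM in I53A, so each I53A library lay above each control. The means were 37.1 ± 3.75 CPM (SD, n = 2) and 69.3 ± 5.49 CPM (SD, n = 2). Adgre5 rose by 0.90 ± 0.17 (SE) on the log2 scale (edgeR adjusted p = 0.00970). The call rested on both controls, since the adjusted p was 0.108 without control replicate 1 and 0.121 without control replicate 2.

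Adgre5 lies on the minus strand of chromosome 8, from 83723251 to 83741326 (GRCm38), and shares 895 exon bases, 23.8% of its exons, with Ddx39 on the opposite strand. The strand setting of the counting is not given in the sources used here, so reads of the 2 genes may not be separable there. Ddx39, an RNA helicase gene, read 38.4 and 38.1 CPM in the controls and 35.7 and 51.8 CPM in I53A and was not called (0.20 ± 0.20 SE, edgeR adjusted p = 0.694). None of the 10 tested genes within 250 kb of Adgre5 was called.

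Adgre1, a marker of tissue macrophages and Langerhans cells, read 3.10 and 5.96 CPM in the controls and 4.52 and 9.34 CPM in I53A. Its groups overlapped (0.68 ± 0.46 SE, edgeR adjusted p = 0.506). Adgre4, a receptor of myeloid cells, read 1.73 and 1.99 CPM in the controls and 0.509 and 1.01 CPM in I53A. Both I53A libraries were lower, and the gene did not pass the test (-1.20 ± 0.62 SE, edgeR adjusted p = 0.358). The 8 leukocyte marker genes summed to 176 and 328 CPM in the controls and 179 and 392 CPM in I53A, which overlap and are mostly Cd74. Without Cd74 the other 7 summed to 55.7 and 60.8 CPM in the controls and 70.9 and 116 CPM in I53A, without overlap. Ptprc, a gene of all leukocytes, read 10.8 and 11.6 CPM in the controls and 16.9 and 27.0 CPM in I53A, and Csf1r and Lyz2 also lay higher in both I53A libraries. The T cell gene Cd3e went the other way, with 6 and 11 reads in the controls and 0 and 1 in I53A. Cd3e was not tested, and the groups overlapped for Aif1 and Cd74. None of the 5 tested was called, and Cd3g had no read in any library. Their part in the Adgre5 level was not tested.

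The latrophilins of subfamily L bind teneurins, FLRT proteins and neurexins on neighbouring cells. None of the 4 passed the test. Adgrl1 read 291 and 279 CPM in the controls and 299 and 339 CPM in I53A, just without overlap (0.16 ± 0.14 SE, edgeR adjusted p = 0.614). Adgrl2 read 212 and 194 CPM in the controls and 193 and 228 CPM in I53A, with the I53A libraries on either side of the controls (0.05 ± 0.15 SE, edgeR adjusted p = 0.909). Adgrl3 read 46.5 and 42.8 CPM in the controls and 64.2 and 53.2 CPM in I53A, with no overlap (0.39 ± 0.17 SE, edgeR adjusted p = 0.256).

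Adgrl4, known from the endothelium, varied widely within each group, at 0.357 and 2.78 CPM in the controls and 0.0636 and 0.970 CPM in I53A. In each group replicate 2 was the higher library, and the groups overlapped (-1.34 ± 1.01 SE, edgeR adjusted p = 0.565). The 7 endothelial marker genes summed to 14.0 and 35.3 CPM in the controls and 24.3 and 33.5 CPM in I53A, again with replicate 2 higher in each group. None of the 6 tested was called, and their part in the Adgrl4 values was not tested.

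The cadherin-like receptors of subfamily C carried more reads than any other subfamily, at 1156 and 1131 CPM in the controls and 1096 and 1012 CPM in I53A. Celsr1, the planar polarity receptor of the basal epidermis, read 702 and 672 CPM in the controls and 617 and 555 CPM in I53A. Both I53A libraries were lower, and the gene was not called (-0.23 ± 0.14 SE, edgeR adjusted p = 0.432). Celsr2, which shares that role, read 453 and 458 CPM in the controls and 477 and 455 CPM in I53A, within 1 range (0.03 ± 0.13 SE, edgeR adjusted p = 0.936). Celsr3, known from axon guidance, read 1.25 and 0.530 CPM in the controls and 2.04 and 0.926 CPM in I53A and overlapped (0.62 ± 0.72 SE, edgeR adjusted p = 0.739).

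In subfamily A, Adgra3 read 84.3 and 64.1 CPM in the controls and 102 and 96.2 CPM in I53A. Both I53A libraries were higher, without passing the test (0.41 ± 0.17 SE, edgeR adjusted p = 0.219). Adgra2, the partner of Reck in WNT7 signalling and known from pericytes and vessels, read 3.87 and 6.10 CPM in the controls and 4.77 and 6.26 CPM in I53A, overlapping (0.18 ± 0.38 SE, edgeR adjusted p = 0.875). The 6 pericyte and smooth muscle markers summed to 84.5 and 84.8 CPM in the controls and 215 and 163 CPM in I53A, of which Cspg4 gave 68.8 in each control and 192 and 138 in I53A. Cspg4 was the 1 called of those 6. Its adjusted p was 0.0623 without control replicate 1. Adgra1 had no read in any library.

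Of the single member of subfamily D with a row, Adgrd1, 5.42 and 4.11 CPM were read in the controls and 7.63 and 7.40 CPM in I53A. The groups did not overlap, and the gene was not called (0.65 ± 0.34 SE, edgeR adjusted p = 0.362). The subfamily F genes Adgrf1, Adgrf2, Adgrf4 and Adgrf5 lie on chromosome 17 between 8.64 and 9.34 Mb from the deleted Ring1. Adgrf2 read 2.26 and 2.85 CPM in the controls and 4.01 and 5.11 CPM in I53A, without overlap (0.86 ± 0.42 SE, edgeR adjusted p = 0.323). Adgrf4, known from epithelia, read 14.0 and 17.4 CPM in the controls and 14.8 and 16.8 CPM in I53A, inside the range of the controls (0.02 ± 0.24 SE, edgeR adjusted p = 0.984). Adgrf5, known for control of lung surfactant and from vessels, read 3.45 and 9.94 CPM in the controls and 8.21 and 10.4 CPM in I53A, overlapping (0.51 ± 0.43 SE, edgeR adjusted p = 0.625). Control replicate 1 was its lowest library, as it was for the endothelial marker sum. Adgrf1 had 1 read, in control replicate 1, Adgrf3 7 to 13 reads per library, and Adgrv1 of subfamily V, a gene of hearing, 2 to 9, and these were not tested.

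Levels were set side by side per kilobase of exon. The length was that of all annotated exons of a gene joined, which can far exceed its longest transcript (14198 and 6052 bases for Adgrl2). The ranks and shares below hold for this length only, and levels by longest transcript were not computed. In the controls Celsr1 led with 62.4 ± 1.94 CPM per kb (SD, n = 2), then Celsr2 with 39.6 ± 0.340 and Adgrl1 with 33.2 ± 0.958, each apart from the next by more than its spread. Adgrg1 at 20.8, Adgrg2 at 15.4 ± 3.35 and Adgrl2 at 14.3 ± 0.911 followed, and the last 2 of these did not differ beyond their spread. Adgre5 at 9.88 ± 0.998 and Adgra3 at 9.15 ± 1.77 did not differ beyond theirs either. The 5 highest genes made up 77.3% of the family's summed level in the controls and 71.6% in I53A. In I53A the order of these first 5 was Celsr1 (53.3), Celsr2 (40.5), Adgrl1 (37.1), Adgrg1 (29.1) and Adgrg2 (21.3), the same 5 genes in the same order. Adgrb1 went from rank 26 at 0.00871 CPM per kb to rank 12 at 2.78, next to Adgrg6, which went from 0.824 (rank 14) to 2.75 (rank 13). By this length Adgrb1 in I53A was thus at a middle level of the family, well under Celsr1, Celsr2 and Adgrl1.

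**Figure D3:**
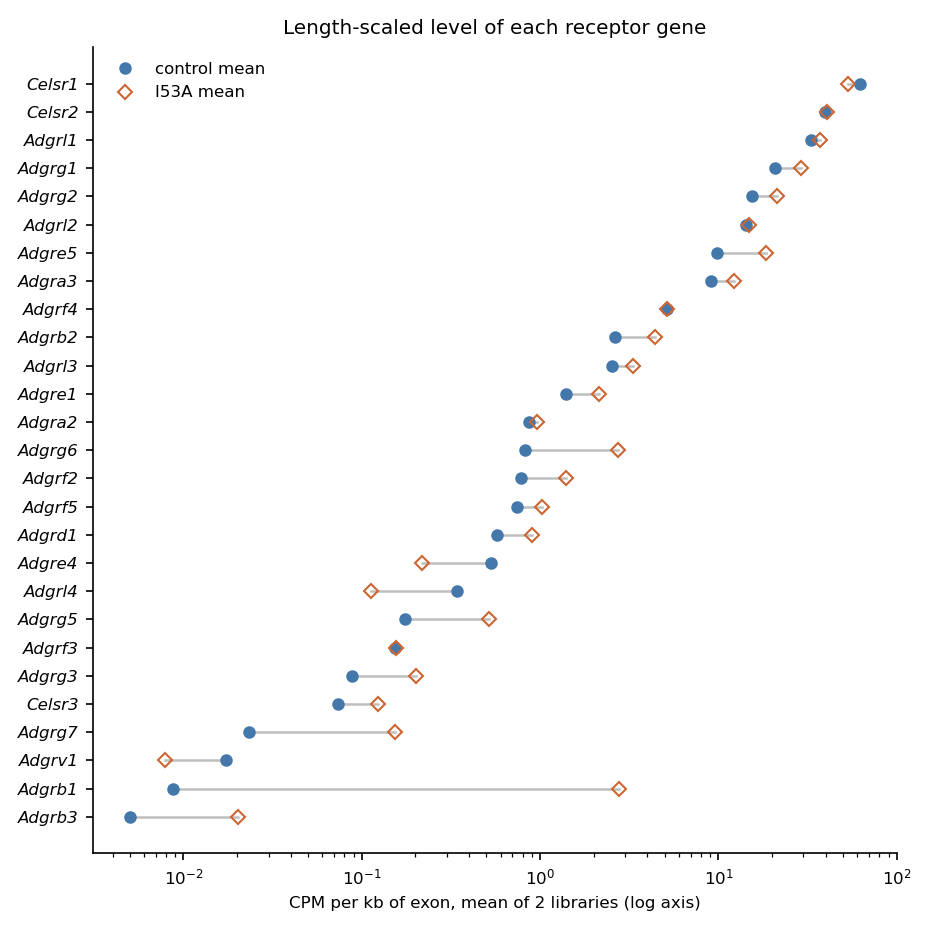
Mean CPM per kilobase of exon of 27 adhesion receptor genes, on a log axis and in the order of the control level; filled circles are control means and open diamonds I53A means, joined by a line, of n = 2 libraries each. Adgra1 and Adgrf1, which have a mean of 0 in I53A, are not drawn. Adgrb1 has the longest line, from 0.00871 to 2.78, and Celsr1 is the highest gene at 62.4 and 53.3.

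The counts of the partner lists stand beside the same 5.68% and 1.04% of all tested genes. Of the 13444 tested genes that the controls alone would have kept, 696 were higher and 151 lower. The latrophilin and subfamily B ligands are counted over such genes, and the other lists over all tested members. Of the 10 listed latrophilin ligands 6 had enough control reads to pass the filter on the controls alone, of which 2 rose and none fell, with a median log2 fold change of 0.42. Tenm3, a teneurin, read 32.3 and 21.6 CPM in the controls and 77.4 and 71.3 CPM in I53A, clearly apart (1.46 ± 0.21 SE, edgeR adjusted p = 0.00203). Tenm4, another teneurin, read 190 and 241 CPM in the controls and 377 and 299 CPM in I53A, also apart (0.65 ± 0.17 SE, edgeR adjusted p = 0.0484). Nrxn2, a neurexin, read 0.298 and 0.265 CPM in the controls and 2.80 and 2.73 CPM in I53A, close within each group. It had 5 and 4 reads in the controls and was tested only through its I53A reads, so it is given by its ratio of pooled counts, 9.78, with an exact binomial interval of 4.96 to 22.0. Tenm3 stayed called in every setting. Tenm4 reached an adjusted p of 0.517 and 0.0569 without control replicates 1 and 2.

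Of the 7 listed ligands of subfamily B, 2 had enough control reads for a test and both, Rtn4r and Rtn4rl1, rose. C1ql1, a secreted C1q-like protein that binds Adgrb3, had 1 and 0 reads in the controls and 54 and 116 in I53A. It was almost unread in the controls, and the ratio of pooled counts was 141, with an exact binomial interval of 25.0 to 5608. As it passed the filter only through I53A, no test is given. Rtn4r and Rtn4rl1 encode Nogo receptors, which bind subfamily B receptors. Rtn4r read 7.62 and 7.89 CPM in the controls and 18.8 and 14.6 CPM in I53A (1.10 ± 0.27 SE, edgeR adjusted p = 0.0400), and Rtn4rl1 read 5.60 and 2.65 against 18.4 and 19.3 CPM (2.17 ± 0.34 SE, edgeR adjusted p = 0.00359). In both, each I53A library lay above each control. The adjusted p of Rtn4r was 0.310 without control replicate 1, 0.165 without control replicate 2 and 0.0702 without I53A replicate 1. Rtn4rl1 stayed called in every setting.

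**Figure D4:**
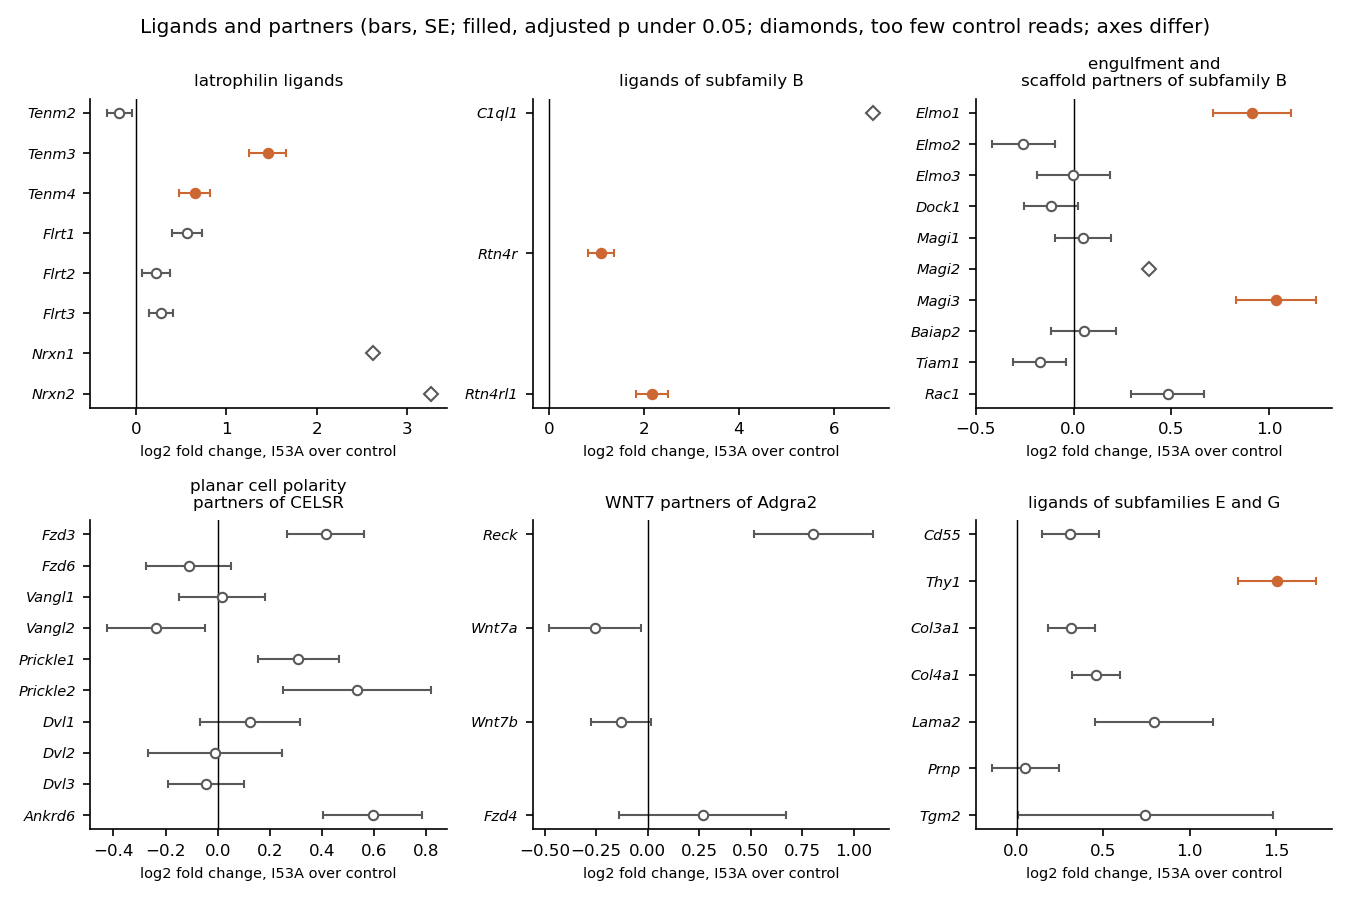
Log2 fold change of I53A over control, with bars of 1 SE from the edgeR fit, for the genes of the 6 partner lists, one panel a list and with axes that differ between panels; filled points have an adjusted p under 0.05, and diamonds are genes with too few control reads to pass the filter on the controls alone, shown without a call. The filled points are Tenm3, Tenm4, Rtn4r, Rtn4rl1, Elmo1, Magi3 and Thy1, all above 0.

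The 10 engulfment and scaffold partners of subfamily B held 2 called genes, Elmo1 and Magi3, both higher, with a median log2 fold change over the list of 0.05. Elmo1, which links Adgrb1 to RAC activation, read 17.6 and 21.8 CPM in the controls and 35.8 and 38.3 CPM in I53A, well apart (0.91 ± 0.20 SE, edgeR adjusted p = 0.0212). Magi3, a membrane scaffold, read 15.5 and 14.3 CPM in the controls and 30.3 and 30.8 CPM in I53A, each pair close together (1.04 ± 0.20 SE, edgeR adjusted p = 0.0127). Without control replicates 1 and 2 the adjusted p was 0.325 and 0.0564 for Elmo1 and 0.145 and 0.112 for Magi3. Without I53A replicate 2, Rac1 was called higher as well (edgeR adjusted p = 0.000792).

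Of the 7 ligands listed for subfamilies E and G, 1 rose, Thy1, a surface glycoprotein and ligand of Adgre5. Thy1 read 17.7 and 22.1 CPM in the controls and 66.6 and 46.9 CPM in I53A, without overlap (1.51 ± 0.22 SE, edgeR adjusted p = 0.00270, and 0.0787 without control replicate 1). Without I53A replicate 2, Col4a1 and Lama2 of this list were called higher too (adjusted p = 0.0302 and 0.0405 by edgeR). Thy1 is also a gene of T cells and fibroblasts. The T cell gene Cd3e had 6 and 11 reads in the controls and 0 and 1 in I53A, and Cd3g had none. The 7 fibroblast markers summed to 2373 and 2562 CPM in the controls and 2626 and 2890 CPM in I53A. Of the 7, 1 was called, Dcn, higher. Without Postn, the most abundant, the other 6 summed to 1002 and 1079 CPM in the controls and 1590 and 1429 CPM in I53A. The call of Dcn was lost without either control replicate, at adjusted p values of 0.159 and 0.499. The part of T cells and fibroblasts in the Thy1 level was not tested.

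None of the 10 planar cell polarity partners of the CELSR receptors was called, with a median log2 fold change of 0.07. Without I53A replicate 1, 3 were called: Ankrd6 and Fzd3 higher and Vangl2 lower (edgeR adjusted p = 0.00572, 0.0132 and 0.0124). The most abundant, Dvl3, read 266 and 302 CPM in the controls and 298 and 252 CPM in I53A (-0.05 ± 0.15 SE, edgeR adjusted p = 0.925). None of the 4 WNT7 partners of Adgra2 was called, and Wnt7b read 117 and 119 CPM in the controls and 115 and 101 CPM in I53A (-0.13 ± 0.14 SE, edgeR adjusted p = 0.726). Without I53A replicate 2, Reck was called higher (edgeR adjusted p = 0.0411).

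CG dinucleotides were counted in the promoters of the members. The motif searched was CG, the same on both strands, in the 250 bases before each start site of RefSeq (GRCm38.p6), with 25 windows for 21 of the 29 members. The median window held 11 CG, beside 6 over all 32851 windows of that table. At least 10 were found in 13 of the 25 windows and in 37.8% of all windows. The Adgrg6 window held 32, as did that of Celsr2, the Adgrb2 window held 35 and the windows of Adgrg1 4 each. Only 4.58% of all windows held as many as Adgrg6. No entry was used for Adgra2, Adgrb1, Adgrd1, Adgre1, Adgre5, Adgrf2, Adgrf3 and Celsr1. The tested members also had longer transcripts than all tested genes, with medians of 5163 and 3348 bases, and a higher GC content, 53.3% and 49.8%.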

How the data were processed

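RNA-seq counts were analysed from 2 control and 2 I53A libraries of sorted newborn epidermal cells, grouped by the genotype label. Per the labels' protocols, 10 ng of total RNA was amplified with the Ovation V2 system and read as 100-nucleotide single reads, an amplification that can widen the spread of genes with few reads. The authors deposited raw counts per gene symbol. Tools listed in the submitters' processing notes, with no role given, are HTSeq 0.6.1, TopHat2 2.0.13, DESeq2 1.6.3 and Cufflinks 2.2.1, the build is mm10, and the strand setting is not given in the sources used here.

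Genes were filtered with filterByExpr (minimum count 10, minimum total 15), scaled by TMM and compared with the quasi-likelihood test of edgeR 4.0.16 in R 4.3.3, two-sided, over all 14550 genes tested, with Benjamini-Hochberg adjustment and a threshold of 0.05. Fold changes are I53A over control on the log2 scale. CPM values divide counts by the library size after TMM scaling, and the depth sets 3 counts at 0.132 to 0.199 CPM. Intervals of ratios with few reads are exact binomial at 95%; reads carry no molecular identifiers, so they cover counting error only. With 2 libraries against 2 an exact permutation test of 1 gene cannot go below 0.333 and was not used. The test was checked on simulated data.

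Adgrb1, C1ql1 and Nrxn2, which passed the filter only through I53A, are described without a test. Adgrg3, Adgrg5, Adgrl4 and Celsr3 would not have been kept by the controls alone either. Their tests are printed, and none of them was called. Every member was named, in full where its mean reached 1 CPM in either group. Of each partner list every called gene was named, or the most abundant where none was called; 1 list is not reported here. Lynx1, Ddx39, marker genes, and partner genes called only when a library was left out or under another fit were named beyond that rule after their values were seen. The members and all lists were chosen with earlier results of these data known. Positions, exon lengths and GC content came from GENCODE M21 (GRCm38), matched by symbol for all 29 members. Alternatives were RLE scaling, limma-voom (limma 3.58.1), DESeq2 1.42.0, no low-count filter, at least 1 CPM in at least 2 libraries, offsets for GC content and length (loess span 0.5), the replicate number as a block, and each library left out in turn.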

Additional observations from a re-analysis of the deposited data

How the results depend on the processing

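Adgrg6 was called higher in all alternatives, Adgre5 in all but those without a control library, and no member was called lower in any. With Adgrb1 counted, which passed the filter only through I53A, the number of members called higher was 3 in each alternative on all libraries and 2 to 5 when 1 library was left out, taking a lone library to vary as much as the other group. Over all genes tested, leaving out 1 library gave 251 to 1198 higher and 38 to 404 lower. The number lower over all genes was 230 with DESeq2, 232 with the replicate block and 376 with offsets and the replicate block; the cause was not tested. The labels do not say that replicate numbers mark a shared litter or day. Deviations of same-numbered libraries correlated at 0.04 over 14550 genes, which with 2 libraries a group cannot settle whether they do. The replicate block left the count of members at 3 and gave 1042 higher and 232 lower over all genes. Direction turned for members that had not been called. Celsr2 was at -0.11 with offsets and -0.12 with offsets and the replicate block. When 1 library was left out, the log2 fold change ranged from -0.13 to 0.53 for Adgra2, from -0.14 to 0.17 for Adgrf4, from -0.094 to 1.43 for Adgrf5, from -0.077 to 0.17 for Adgrl2 and from -4.41 to 0.71 for Adgrl4. For partner genes, alternatives added after seeing the data gave, besides the values above, adjusted p values for Tenm4 of 0.0538 without I53A replicate 1, 0.0526 with limma-voom and 0.0562 with offsets, and for Rtn4r of 0.0554 with limma-voom and 0.0518 with offsets. Flrt1, a latrophilin ligand, was called higher with the replicate block (0.0446), with offsets and that block (0.0451) and with DESeq2 (0.0384). Without I53A replicate 2 the log2 fold change of Flrt1 was 0.62. Depth limits the genes with few reads, where 3 counts stand for 0.132 to 0.199 CPM.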
